A study of Mus musculus with 4 samples.

Results

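The DNA replication machinery was followed through 41 genes, chosen by symbol for their textbook roles at the origin, at the fork and in the supply of nucleotides, out of the 14936 genes of the deposited table. All 41 had a row, and all 41 passed the filter of at least 1 CPM, a read count scaled to the size of its library, in at least 2 libraries, as did 14869 genes in all. RNA came from whole hearts of 4 mouse embryos at E18.5, on a C57BL/6 background. Embryos 51 and 54 were homozygous for the floxed Adar1 allele and carried 1 copy of Nkx2.5-Cre, and are called the labelled mutants. The pair of labelled controls, embryos 47 and 50, carried the same floxed Adar1 alleles on both chromosomes and no Cre. Nkx2.5-Cre expresses the Cre recombinase from a gene of the early heart, so the hearts also hold cells outside that lineage, and effects of Cre itself and of the loss of Adar1 cannot be told apart. The labels give 1 embryo a library, and each p-value rests on 2 embryos a group.

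Adar1 encodes an enzyme that turns adenosine into inosine in double-stranded RNA, and the study asked about its place in heart formation. The Adar row, which is that gene, held 195 and 213 CPM in labelled mutants 51 and 54, against 30.2 and 35.7 CPM in labelled controls 47 and 50, a log2 change of 2.60 (SE 0.13, adjusted p = 2.41e-05 by limma). The row was thus higher in the labelled mutants. Which exons are floxed is not in the labels, so a sum over the gene does not check the deletion, and the genotype label of embryos 51 and 54 holds the words wildtype and KO together. Groups were therefore taken from the sample titles. The table held 8593443 and 8444488 reads in the labelled mutants, against 8998872 and 7457103 reads in the labelled controls. The first principal component of the log2 values carried 86.9% of their variance and placed the labelled mutants at -63.2 and -42.1 and the labelled controls at 53.7 and 51.6.

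DNA is copied once per cell cycle. Origins are licensed when the origin recognition complex (ORC), Cdc6 and Cdt1 load the ring of Mcm2 to Mcm7, and Cdc45 and the GINS complex turn that ring into the working helicase. Primase and polymerases alpha, delta and epsilon then make DNA on the clamp Pcna, while replication protein A (RPA) covers the single strands and ribonucleotide reductase supplies the building blocks. Many of these genes are transcribed by E2F factors as cells enter S phase. In the late fetal heart cardiomyocytes still divide, and most stop soon after birth. In RNA from whole hearts, fewer dividing cells and less RNA per cell cannot be told apart.

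Of the 41 replication genes, 10 fell in the labelled mutants and 0 rose, by limma-trend on log2(CPM + 1) with a Benjamini-Hochberg adjusted p under 0.05. That is 24.4% of the members, beside 14.2% of all genes tested that fell by the same rule and 17.8% that rose. The 10 were Rrm2, Rrm1, Tk1, Rpa1, Rpa2, Rpa3, Rfc2, Fen1, Pcna and Lig1. At an unadjusted limma p under 0.05, 12 members were lower and 1, Tyms, was higher. That is 13 of 41, beside 6754 of the 14869 genes tested, in either direction. The edgeR quasi-likelihood test called the same 10 members and DESeq2 called 9 of them, without Lig1, and neither called a rise. Over all genes tested, edgeR called 1982 down and DESeq2 called 1556 down. The authors' deposited table gave an FDR under 0.05 to 10 of the 41 members, the same 10, and to 4603 of the 14869 genes tested, in either direction. Leaving out 1 library leaves 1 embryo in a group, so sizes of change are given here. The median log2 fold change of the members was -0.16 without labelled mutant 51 and -0.31 without labelled mutant 54. It was -0.17 without labelled control 47 and -0.32 without labelled control 50, where the lone control is assumed to vary like the mutants. Over all genes tested the median lay from -0.011 to -0.00028 in these fits. The members past the threshold changed with the library left out. They were fewest without a control, as were the calls over all genes.

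The median log2 fold change of the 41 genes was -0.23, against -0.01 over all genes tested, and 32 of them had a negative value. In 24 of the 41, which is 58.5%, both labelled mutants were below both labelled controls, and this held for 36.3% of all genes tested. In 3, or 7.32%, both labelled mutants were above both controls, namely Mcm6, Rfc3 and Tyms, against 36.0% of all genes. In the other 14 the groups overlapped. Summed over the 41 genes, the level was 1533 and 1778 CPM in labelled mutants 51 and 54, against 2259 and 1984 CPM in labelled controls 47 and 50. Mutant 51 lay further from the control mean than mutant 54 in 65.9% of the members and in 61.1% of all genes tested. The median difference from the controls was -0.31 in mutant 51 and -0.16 in mutant 54 on the log2 scale.

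**Figure D1:**
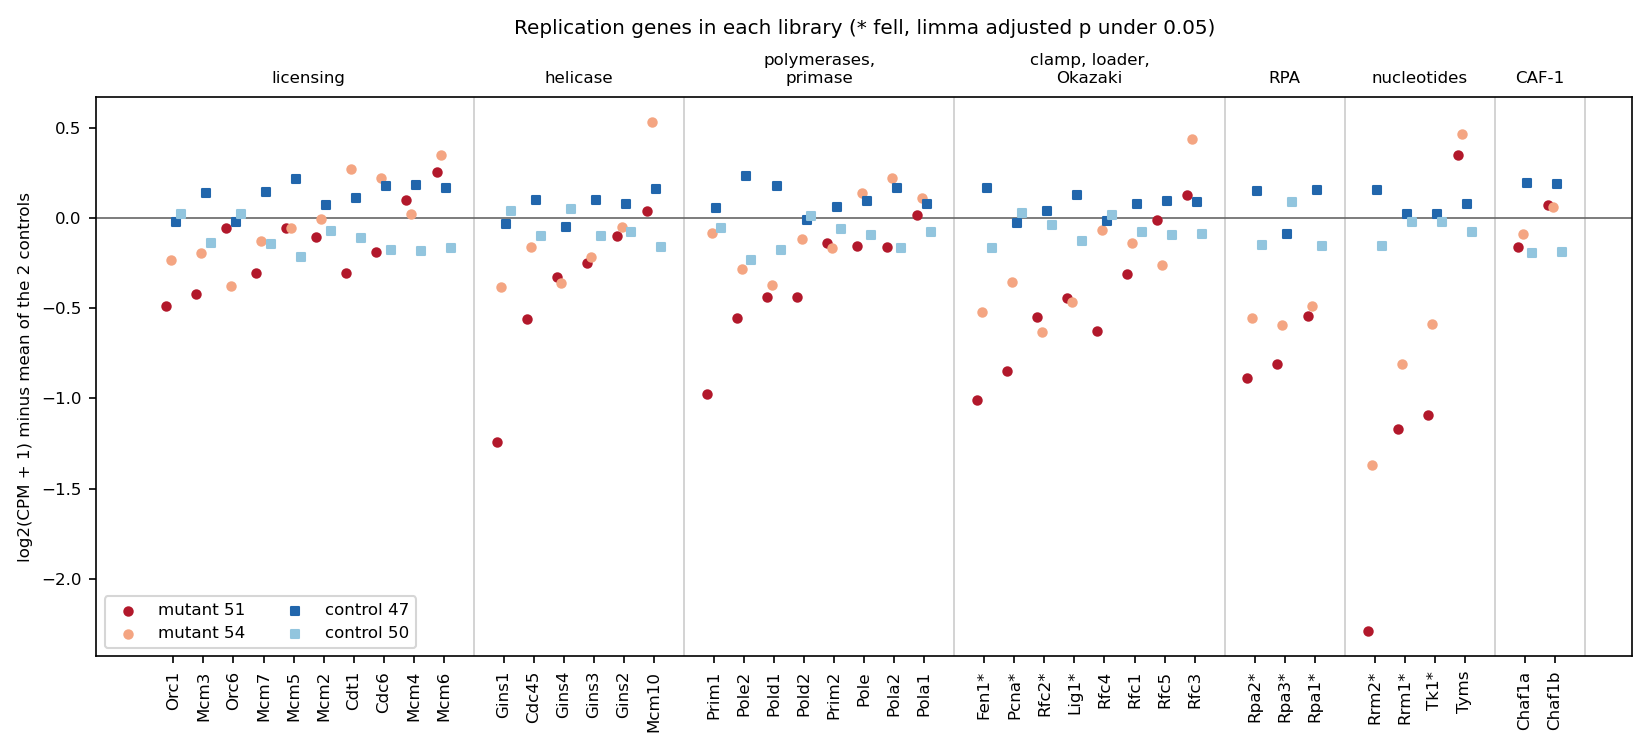
Each of the 41 replication genes in each of the 4 libraries, as log2(CPM + 1) minus the mean of the 2 labelled controls, with genes grouped by role and asterisks at the 10 that fell. Rrm2 has the lowest points of all in both labelled mutants, and Tyms has both labelled mutants above the control line.

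The calls lay in some roles and not in others. None of the 24 genes for licensing, helicase activation and polymerases was called by limma, edgeR or DESeq2, and 2 of them, Gins1 and Pold1, were lower at an unadjusted p under 0.05. Their median log2 fold change was -0.18. Among the other 17 members, which act at the clamp, on single strands, in nucleotide supply and in chromatin assembly, 10 fell and the median was -0.51. The roles were joined in this way after the values were seen, and the difference between the 24 and the 17 was not tested.

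**Figure D2:**
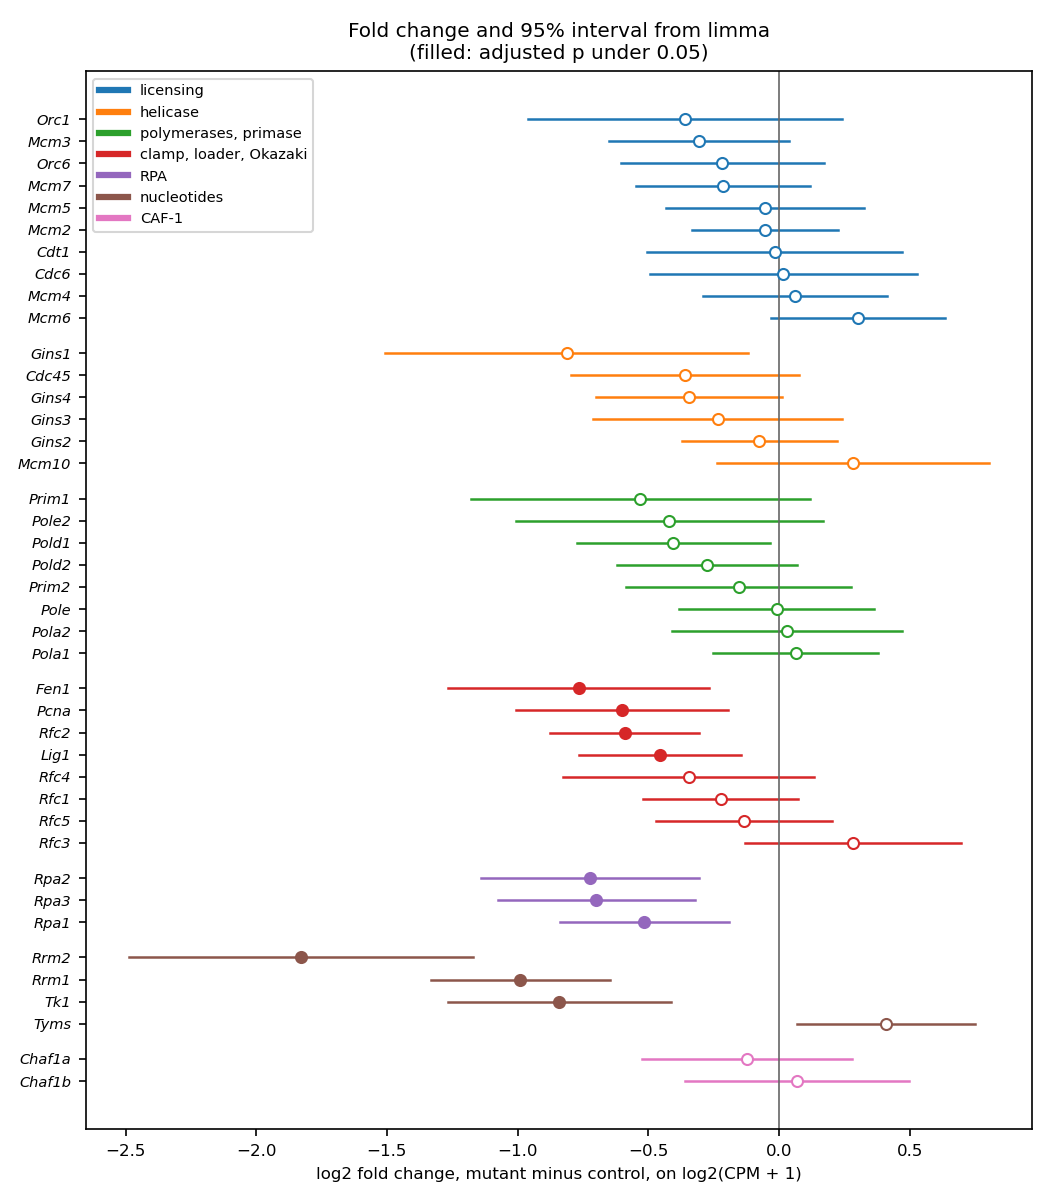
Log2 fold change of each of the 41 replication genes, labelled mutants minus labelled controls, on log2(CPM + 1), with the 95% interval from limma and filled points for an adjusted p under 0.05. Rrm2 lies furthest to the left at -1.83, and Tyms furthest to the right at 0.41.

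Promoters of members that fell and of members not called are shown to let their sequence be read beside the expression values, and were chosen after those values were seen. RefSeq promoter windows on GRCm38.p6, from 250 bases before the start to 50 after it, matched 34 of the 41 members. Gins1, Gins2, Gins4, Mcm4, Pole, Prim2 and Rfc2 were not matched. The 150 bases just before the RefSeq start are printed 5′ to 3′ on the gene's strand. Capitals mark a CCAAT box (CCAAT, or ATTGG on the other strand), the kind bound by NF-Y, or an E2F-type site (TTTCCCGC, TTTCGCGC, TTTGCCGC or TTTGGCGC, on either strand). RefSeq and GENCODE starts differ for some genes. Most of the Pcna stretch lies inside the GENCODE span of that gene, which reaches 132253314, as do the last bases of the Rrm2, Orc1 and Rfc3 stretches in theirs. Of 3 genes that fell, Rrm2 is at chr12:24708104-24708253, plus strand, Rrm1 at chr7:102441545-102441694, plus strand, and Pcna at chr2:132253181-132253330, minus strand.
Rrm2: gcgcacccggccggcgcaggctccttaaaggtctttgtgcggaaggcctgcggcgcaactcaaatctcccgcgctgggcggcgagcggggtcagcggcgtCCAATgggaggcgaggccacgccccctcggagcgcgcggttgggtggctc
Rrm1: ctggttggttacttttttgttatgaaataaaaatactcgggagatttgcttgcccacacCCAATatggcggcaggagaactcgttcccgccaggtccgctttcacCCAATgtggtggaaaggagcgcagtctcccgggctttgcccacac
Pcna: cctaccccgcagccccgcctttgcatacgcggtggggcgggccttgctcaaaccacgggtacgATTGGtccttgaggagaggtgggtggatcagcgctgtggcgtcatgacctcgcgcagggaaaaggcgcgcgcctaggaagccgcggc
Of 5 genes that were not called, Mcm6 is at chr1:128359706-128359855, minus strand, Pola1 at chrX:93632156-93632305, minus strand, Orc1 at chr4:108579304-108579453, plus strand, Mcm3 at chr1:20820313-20820462, minus strand, and Rfc3 at chr5:151651209-151651358, minus strand.
Mcm6: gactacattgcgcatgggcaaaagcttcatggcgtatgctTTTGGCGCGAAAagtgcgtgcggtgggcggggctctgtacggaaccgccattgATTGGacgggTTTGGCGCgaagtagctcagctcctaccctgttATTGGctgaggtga
Pola1: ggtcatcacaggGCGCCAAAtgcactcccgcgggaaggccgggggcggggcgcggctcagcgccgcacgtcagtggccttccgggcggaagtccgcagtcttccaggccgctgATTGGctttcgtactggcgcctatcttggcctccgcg
Orc1: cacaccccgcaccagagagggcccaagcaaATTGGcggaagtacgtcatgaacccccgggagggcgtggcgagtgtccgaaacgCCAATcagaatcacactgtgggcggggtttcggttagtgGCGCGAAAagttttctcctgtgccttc
Mcm3: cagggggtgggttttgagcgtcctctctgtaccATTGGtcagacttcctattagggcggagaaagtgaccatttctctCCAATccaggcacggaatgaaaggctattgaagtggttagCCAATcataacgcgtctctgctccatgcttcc
Rfc3: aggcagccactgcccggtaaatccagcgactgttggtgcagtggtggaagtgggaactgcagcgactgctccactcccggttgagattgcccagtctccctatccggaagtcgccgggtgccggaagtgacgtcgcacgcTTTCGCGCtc
The stretches from Rrm2, Rrm1 and Pcna hold CCAAT boxes and no E2F-type match, and so does that from Mcm3. Mcm3 has E2F-type matches after the start, outside the stretch shown. Those from Mcm6, Pola1 and Orc1 hold both, and that from Rfc3 holds an E2F-type match and no CCAAT box. In Mcm6, 2 of the 3 E2F-type matches overlap each other on opposite strands.

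Over the whole 300-base windows, an E2F-type match stood in 13 of the 34 matched members, or 38.2%, against 2.61% of the 27025 genes in the RefSeq table and 4.65% of the genes tested here that it lists. It stood in 7 of 9 licensing genes, in 0 of 3 RPA genes and in 0 of 4 nucleotide genes. Among matched members that fell it stood in 1 of 9, Lig1, and among those not called in 12 of 25. In Lig1, and in the uncalled Cdt1, Mcm3, Pold1 and Pole2, E2F-type matches lie only after the start. A CCAAT box stood in 6 of 9 members that fell and in 16 of 25 not called. Together that is 22 of 34, or 64.7%, against 41.1% of the genes in the RefSeq table and 42.5% of the tested ones. The CHR element TTTGAA, searched on both strands, stood in 5 of 34, or 14.7%, against 20.2% of the genes in the RefSeq table and 14.3% of the tested ones. A match is a run of letters and not a bound site, no match says nothing of the factor, and base composition was not matched between the sets.

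None of the 10 genes of origin licensing fell or rose by limma, edgeR or DESeq2, none was past an unadjusted p of 0.05 in limma, and the median log2 fold change was -0.05. Mcm6, a subunit of the MCM ring, held 140 and 149 CPM in labelled mutants 51 and 54, against 132 and 105 CPM in labelled controls 47 and 50. Both mutants were above both controls, and the log2 fold change was 0.30 (SE 0.14, adjusted p = 0.141 by limma), with a 95% interval from -0.03 to 0.64. Summed over the 6 ring subunits, the level was 500 and 534 CPM in the labelled mutants, against 581 and 471 CPM in the labelled controls, so the groups overlapped. For Mcm2, Mcm4 and Mcm5 the log2 fold changes were -0.05, 0.06 and -0.05, with overlapping groups. Mcm3 stood at -0.31 with both mutants below both controls, and Mcm7 at -0.21 with overlap.

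The loaders of the ring were also not called. Cdc6, an ATPase that joins ORC on the origin, held 13.2 and 17.8 CPM in labelled mutants 51 and 54, against 17.2 and 13.3 CPM in labelled controls 47 and 50. One library of each group was high and one low, and the log2 fold change was 0.02 (SE 0.22, adjusted p = 0.959 by limma), negative under upper-quartile and quantile scaling. Cdt1, which brings the ring to the origin, was at -0.02. Orc1, the largest ORC subunit, held 2.72 and 3.44 CPM in the labelled mutants, against 4.14 and 4.29 CPM in the labelled controls, with no overlap. Its log2 fold change was -0.36 (SE 0.25, adjusted p = 0.307 by limma), on as few as 25 reads, the lowest read number of any member. Orc6, the smallest ORC subunit, was at -0.22. Over the 10 licensing genes the lowest bound of a 95% interval was -0.96, for Orc1, and the highest was 0.64, for Mcm6.

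None of the 6 genes of helicase activation passed the threshold, at a median log2 fold change of -0.29. Gins1, a subunit of the GINS complex that clasps the ring, held 5.11 and 10.1 CPM in labelled mutants 51 and 54, against 13.1 and 13.8 CPM in labelled controls 47 and 50. Both mutants were below both controls, and mutant 51 stood far below mutant 54. The log2 fold change was -0.81 (SE 0.29, adjusted p = 0.0725 by limma), and the gene was past the threshold under upper-quartile scaling and without mutant 54. Gins2 held 43.4 and 45.0 CPM in the labelled mutants, against 49.3 and 44.1 CPM in the labelled controls, with overlap, at a log2 change of -0.08 (SE 0.13, adjusted p = 0.663 by limma). Gins3 and Gins4 stood at -0.23 and -0.34 without overlap. Cdc45, the partner of GINS on the ring, stood at -0.36 without overlap, and was past the threshold without mutant 54. Mcm10, which helps to start the helicase, stood at 0.28 with overlap.

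The 8 polymerase and primase genes gave no call, at a median log2 fold change of -0.22. Pold1, the catalytic subunit of the lagging-strand polymerase delta, held 31.0 and 32.5 CPM in labelled mutants 51 and 54, against 48.0 and 37.3 CPM in labelled controls 47 and 50. The groups did not overlap, and the log2 fold change was -0.40 (SE 0.16, adjusted p = 0.0874 by limma), past the threshold under upper-quartile scaling. Prim1, the catalytic primase subunit that lays down the RNA primer, held 15.1 and 29.0 CPM in the labelled mutants, against 32.0 and 29.6 CPM in the labelled controls. Mutant 51 alone stood far below the other 3 libraries, and the log2 fold change was -0.53 (SE 0.28, adjusted p = 0.176 by limma). Pole, the catalytic subunit of the leading-strand polymerase epsilon, held 28.6 and 35.3 CPM in the labelled mutants, against 34.3 and 29.9 CPM in the labelled controls. Its groups overlapped, and the log2 fold change was -0.01 (SE 0.16, adjusted p = 0.968 by limma), positive with TMM scaling and in edgeR. Of the accessory subunits, Pold2 stood at -0.28, Pole2 at -0.42 and Prim2 at -0.15, all without overlap. Pola1 and Pola2, of polymerase alpha, stood at 0.06 and 0.03 with overlap, and both were negative under upper-quartile and quantile scaling.

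Among the 8 genes of the clamp, its loader and Okazaki fragment processing, 4 fell and 0 rose, at a median log2 fold change of -0.40. Pcna, the ring that holds polymerases on DNA (chromosome 2, 132249162 to 132253314, GRCm38), held 97.3 and 138 CPM in labelled mutants 51 and 54, against 173 and 179 CPM in labelled controls 47 and 50. Both mutants were below both controls, and the log2 fold change was -0.60 (SE 0.17, adjusted p = 0.0354 by limma). Pcna had the highest level per kb of exon of the 41 genes in both groups, at 48.9 CPM per kb in the labelled mutants and 73.4 CPM per kb in the labelled controls. Rfc2, a subunit of the clamp loader (chromosome 5, 134581366 to 134601805), held 39.8 and 37.6 CPM in the labelled mutants, against 60.5 and 57.3 CPM in the labelled controls. The groups were well apart and close within each pair, with a log2 change of -0.59 (SE 0.12, adjusted p = 0.0118 by limma).

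The other 4 loader subunits were not called. Rfc5 held 49.6 and 41.7 CPM in labelled mutants 51 and 54, against 53.4 and 46.9 CPM in labelled controls 47 and 50, with overlap, at a log2 change of -0.14 (SE 0.14, adjusted p = 0.489 by limma). Rfc1, the large subunit, and Rfc4 stood at -0.22 and -0.35 without overlap. Rfc3 stood at 0.28 with both mutants above both controls. Thus 1 of 5 genes of the same complex was called, and differences between its subunits were not tested.

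Of the pair that finishes Okazaki fragments, both fell. Fen1, the nuclease that trims the primer flap (chromosome 19, 10199132 to 10204169), held 14.3 and 20.4 CPM in labelled mutants 51 and 54, against 33.4 and 26.4 CPM in labelled controls 47 and 50. There was no overlap, and the log2 fold change was -0.77 (SE 0.21, adjusted p = 0.0321 by limma). Its exons overlap those of Gm10143 and Tmem258 on the other strand, and Tmem258 held 23.9 and 28.7 CPM in the labelled mutants, against 52.4 and 56.0 CPM in the labelled controls. The strand setting of the counting is not given in the sources used here, so reads of Fen1 and these genes cannot be told apart. Lig1, the ligase that seals the fragments (chromosome 7, 13277283 to 13311433), held 48.2 and 47.5 CPM in the labelled mutants, against 72.1 and 60.4 CPM in the labelled controls. The mutants were close to each other and below both controls, at a log2 change of -0.46 (SE 0.13, adjusted p = 0.0369 by limma). Lig1 was past the threshold in 8 of 13 alternative settings, the fewest of the 10 called genes. Rfc2, Lig1 and Tk1 overlap the opposite-strand genes Lat2, Zswim9 and Afmid, which held at most 3.60, 13.4 and 6.78 CPM in any library. Of the uncalled members, Orc6, Cdc45, Gins2, Rfc4, Rfc5 and Chaf1a overlap opposite-strand genes with higher CPM in every library, and Mcm7 overlaps Cops6, at a similar level. The gene over Rfc4, Eif4a2, held 342 and 384 CPM in the labelled mutants, against 394 and 455 CPM in the labelled controls.

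All 3 subunits of RPA fell, at a median log2 fold change of -0.70. Rpa1, the large subunit that binds single-stranded DNA (chromosome 11, 75298166 to 75348324), held 64.9 and 67.4 CPM in labelled mutants 51 and 54, against 106 and 85.2 CPM in labelled controls 47 and 50. The groups did not overlap, and the log2 fold change was -0.51 (SE 0.14, adjusted p = 0.0289 by limma). Rpa2, the middle subunit, which checkpoint kinases phosphorylate (chromosome 4, 132768332 to 132778752), held 19.8 and 25.2 CPM in the labelled mutants, against 41.6 and 33.7 CPM in the labelled controls. Again both mutants were below both controls, at -0.72 (SE 0.18, adjusted p = 0.0218 by limma). Rpa3, the small subunit (chromosome 6, 8255936 to 8259173), held 16.5 and 19.4 CPM in the labelled mutants, against 27.8 and 31.7 CPM in the labelled controls. Its log2 fold change was -0.70 (SE 0.16, adjusted p = 0.0174 by limma). Without mutant 51, Rpa3 was still past the threshold and Rpa1 and Rpa2 were not, at limma log2 fold changes of -0.59, -0.49 and -0.56 for Rpa3, Rpa1 and Rpa2.

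In nucleotide supply 3 of 4 genes fell, with the 3 largest changes among the 41 genes and a median log2 fold change of -0.92. Rrm2, the small subunit of ribonucleotide reductase, whose level limits the making of deoxynucleotides in S phase (chromosome 12, 24708241 to 24714146), held 29.4 and 56.4 CPM in labelled mutants 51 and 54, against 164 and 132 CPM in labelled controls 47 and 50. Both mutants stood far below both controls, at 19.8% and 38.1% of the control mean. The log2 fold change was -1.83 (SE 0.28, adjusted p = 0.00431 by limma). It was -1.37 without mutant 51 and -2.29 without mutant 54, both past the threshold, and -1.67 (adjusted p = 0.0978 by limma) without control 47 and -1.98 (adjusted p = 0.0712 by limma) without control 50. Rrm1, the large and more stable subunit of the same enzyme (chromosome 7, 102441695 to 102469771), held 87.4 and 112 CPM in the labelled mutants, against 201 and 194 CPM in the labelled controls. No library crossed over, and the log2 fold change was -0.99 (SE 0.15, adjusted p = 0.00371 by limma), the smallest p of the 41.

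The values of Rrm2, the member with the largest change, can be set beside those of Rrm1 and of Mcm6 within each library, which restates them as ratios and adds no test. The ratio of Rrm2 to Rrm1 CPM was 0.336 and 0.502 in labelled mutants 51 and 54, against 0.816 and 0.680 in labelled controls 47 and 50. The ratio of Rrm2 to Mcm6 CPM was 0.209 and 0.377 in the labelled mutants, against 1.25 and 1.26 in the labelled controls. Per kb of exon, Rrm2 averaged 15.5 CPM in the labelled mutants and 53.5 CPM in the labelled controls, and Mcm6 averaged 31.1 CPM in the labelled mutants and 25.3 CPM in the labelled controls.

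Tk1, the S-phase thymidine kinase of the salvage route (chromosome 11, 117815526 to 117826092), held 25.7 and 36.9 CPM in labelled mutants 51 and 54, against 56.9 and 55.0 CPM in labelled controls 47 and 50. The groups did not overlap, and the log2 fold change was -0.84 (SE 0.18, adjusted p = 0.0141 by limma). Tyms, which makes thymidylate by the other route, de novo, held 29.7 and 32.3 CPM in the labelled mutants, against 24.4 and 21.9 CPM in the labelled controls. Here both mutants were above both controls, at a log2 change of 0.41 (SE 0.14, adjusted p = 0.0672 by limma), with a 95% interval from 0.07 to 0.75. Tyms was the nearest to the threshold of the genes outside it, followed by Gins1 and Pold1, and Lig1, Pcna and Fen1 were the nearest inside it. The difference between Tk1 and Tyms was not tested.

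**Figure D3:**
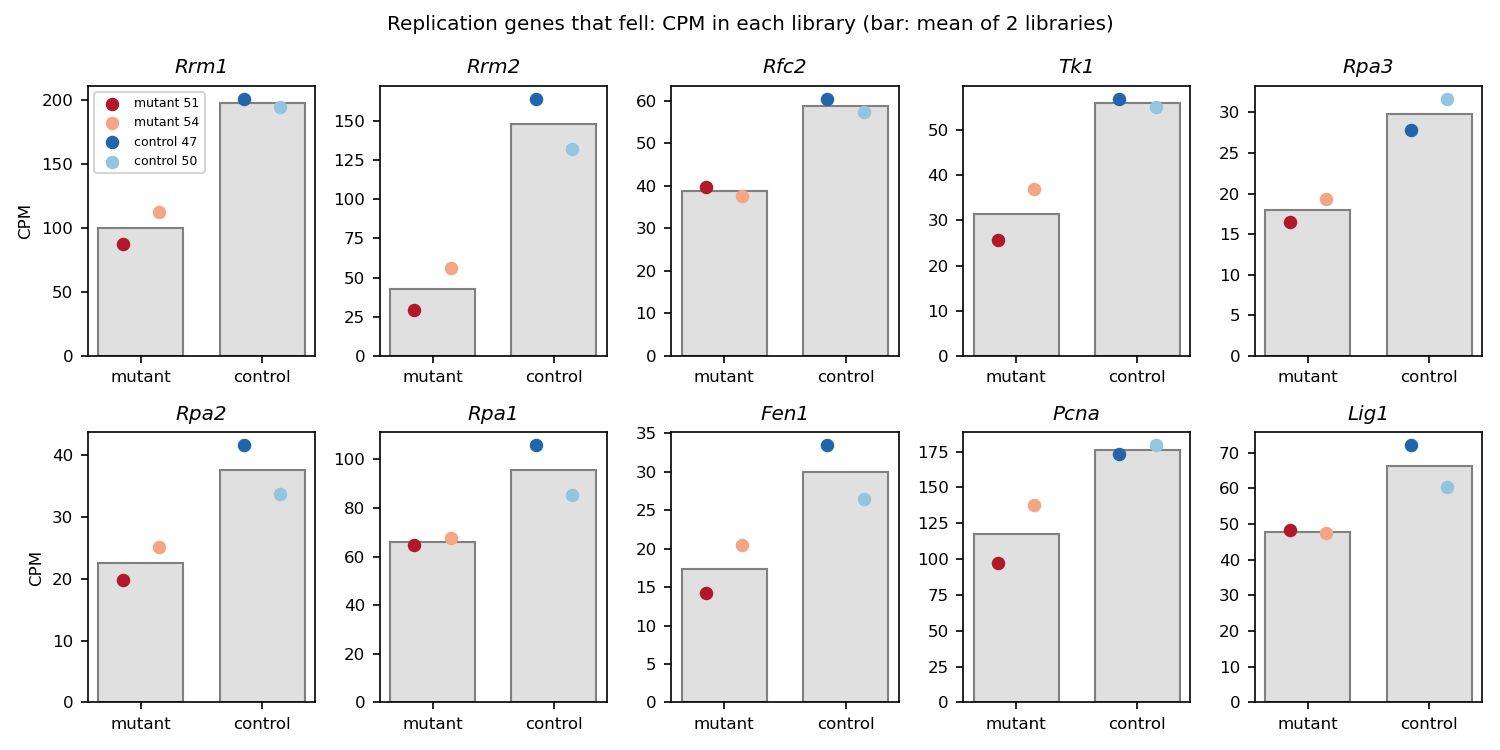
CPM in each library for the 10 replication genes that fell, labelled mutants left and labelled controls right, with a bar at the mean of the 2 libraries. In every panel both labelled mutants lie below both labelled controls, and mutant 54 lies nearer to the controls than mutant 51 in 8 of the 10.

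The pair of chromatin assembly factor 1 genes, which place histones on new DNA at the clamp, was not called. Chaf1a held 25.4 and 26.7 CPM in labelled mutants 51 and 54, against 32.6 and 24.8 CPM in labelled controls 47 and 50, a log2 change of -0.12 (SE 0.17, adjusted p = 0.599 by limma). Chaf1b held 19.3 and 19.1 CPM in the labelled mutants, against 20.9 and 15.9 CPM in the labelled controls, a log2 change of 0.07 (SE 0.18, adjusted p = 0.789 by limma), negative under upper-quartile scaling. In both genes the mutants lay between the controls, so the groups overlapped.

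Further genes of DNA replication were read from 7 lists of 100 genes, of which 99 were tested. Of these, 25 fell and 15 rose, which is to be read beside the 14.2% and 17.8% of all genes given above. The counts of each list below are to be read beside the same shares. At an unadjusted limma p under 0.05, 30 were lower and 19 higher, beside 6754 of the 14869 genes tested, in either direction. By DESeq2, 18 fell and 9 rose, beside 1556 and 2118 of all genes tested. The median log2 fold change of the 99 was -0.18. It was -0.084 without labelled control 47 and -0.23 without labelled control 50, and calls were again fewest in those 2 fits. With all libraries kept, the calls ran in both directions in most of the lists.

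Among 15 other origin and firing factors, 3 fell and 4 rose, at a median log2 fold change of 0.12, and DESeq2 called 1 and 3. Orc4, a core ORC subunit, held 87.8 and 84.8 CPM in labelled mutants 51 and 54, against 44.5 and 46.2 CPM in labelled controls 47 and 50. Its log2 fold change was 0.91 (SE 0.11, adjusted p = 0.00193 by limma), and Orc2, another core subunit, rose by 0.92 (SE 0.13, adjusted p = 0.00308 by limma), both without overlap. Orc3 and Mcm9, an MCM relative that acts in repair, rose as well, by 0.48 and 0.76. Gmnn, whose protein geminin blocks Cdt1 in S and G2 phase, held 15.9 and 28.7 CPM in the labelled mutants, against 43.8 and 50.6 CPM in the labelled controls. It fell, at a log2 change of -1.10 (SE 0.26, adjusted p = 0.0187 by limma), as did Cdc7, the kinase that fires origins, at -0.62, and Topbp1, a firing factor, at -0.40.

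Among 19 other fork and polymerase factors, 7 fell and 1 rose, at a median of -0.25. The 7 included all 3 subunits of ribonuclease H2, which removes ribonucleotides from DNA. Rnaseh2a, the catalytic subunit, held 56.5 and 58.8 CPM in labelled mutants 51 and 54, against 97.2 and 105 CPM in labelled controls 47 and 50, a log2 change of -0.80 (SE 0.11, adjusted p = 0.00335 by limma). Rnaseh2b and Rnaseh2c fell at -0.78 and -0.82, with no overlap in any of the 3. Top2a, the topoisomerase of dividing cells, held 187 and 267 CPM in the labelled mutants, against 352 and 363 CPM in the labelled controls, at -0.68 (SE 0.18, adjusted p = 0.0297 by limma). Pclaf, a Pcna-binding protein, fell at -0.86, Dna2, a flap nuclease, at -1.04, and Chtf18, of an alternative clamp loader, at -0.76. Atad5, whose protein unloads the clamp, was the 1 that rose, at 0.70.

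Among 14 other nucleotide supply genes, 3 fell and 1 rose, at a median of -0.07. The 1 was Samhd1, whose enzyme breaks down deoxynucleotides and which is known as an interferon-induced gene. It held 184 and 169 CPM in labelled mutants 51 and 54, against 36.2 and 38.0 CPM in labelled controls 47 and 50. No library came near the other group, and the log2 fold change was 2.22 (SE 0.12, adjusted p = 3.02e-05 by limma), past the threshold in all 13 alternative settings. The ratio of Samhd1 to Rrm2 CPM was 6.27 and 3.0 in the labelled mutants, against 0.221 and 0.288 in the labelled controls, with both labelled mutants far above both labelled controls. Dut, which removes dUTP, held 24.9 and 31.3 CPM in the labelled mutants, against 56.2 and 55.2 CPM in the labelled controls, at -0.97 (SE 0.15, adjusted p = 0.00433 by limma). Dctpp1, which cleans up the nucleotide pool, fell at -0.70, and Slc29a1, a nucleoside transporter, at -0.40. Rrm2b, the small reductase subunit used outside S phase, stood at 0.11 and was not called.

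Among 11 genes of chromatin replication, 3 fell and 3 rose, at a median of -0.23. Nasp, a histone chaperone, fell at -0.69 (SE 0.11, adjusted p = 0.00577 by limma), and Asf1b and Cbx5 fell at -0.83 and -0.39. Asf1a, the paralog of Asf1b, rose by 0.65 (SE 0.12, adjusted p = 0.00855 by limma), and Hells and Ssrp1 rose by 0.50 and 0.46. Uhrf1 and Dnmt1, which keep methylation on new DNA, stood at -0.32 and -0.05 and were not called.

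Among 17 E2F and RB regulators, 2 fell and 3 rose, at a median of -0.20. Over all genes tested 14.2% fell and 17.8% rose, so both counts lay near those shares. The balance changed with the setting, at 5 that fell and 2 that rose under upper-quartile scaling, 4 and 2 under quantile scaling, and 1 and 0 by DESeq2. E2f1, an activator of S-phase genes, held 23.7 and 29.2 CPM in labelled mutants 51 and 54, against 42.2 and 36.5 CPM in labelled controls 47 and 50, a log2 change of -0.56 (SE 0.16, adjusted p = 0.0351 by limma). Rbl2, the pocket protein p130, fell at -0.58 (SE 0.13, adjusted p = 0.0183 by limma). Lin54, a DNA-binding subunit of the DREAM complex, rose by 0.54 (SE 0.13, adjusted p = 0.0217 by limma), and Lin9 and E2f4 rose by 0.54 and 0.49. Rb1 stood at 0.37, and the repressors E2f7 and E2f8 at -0.20 and 0.48, none of them called.

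Among 12 S-phase cyclins, kinases and inhibitors, 7 fell and 1 rose, at a median of -0.57. Cdkn1a, whose protein p21 blocks cyclin-dependent kinases and Pcna, was the 1 that rose. It held 289 and 136 CPM in labelled mutants 51 and 54, against 40.0 and 37.2 CPM in labelled controls 47 and 50, with mutant 51 well above mutant 54, at a log2 change of 2.33 (SE 0.31, adjusted p = 0.00249 by limma). Cdkn2c, an inhibitor of Cdk4 and Cdk6, held 13.7 and 19.5 CPM in the labelled mutants, against 49.3 and 47.4 CPM in the labelled controls, and fell at -1.51 (SE 0.18, adjusted p = 0.00179 by limma). Ccna2, the cyclin of S phase and G2, held 79.9 and 131 CPM in the labelled mutants, against 212 and 200 CPM in the labelled controls, and fell at -1.0 (SE 0.22, adjusted p = 0.0150 by limma). Its partner Cdk2 fell at -0.69, Skp2 at -0.79, Wee1 at -0.60, Ccne2 at -0.55 and the inhibitor Cdkn1c at -0.89. Ccne1 stood at -0.25 and was not called. Of the 11 replication checkpoint genes tested, 2 rose by limma, the kinase Atr by 0.57 and Brca2 by 0.51, near the 17.8% of all genes that rose. Brca2 was just inside the threshold (adjusted p = 0.0482 by limma). In that list 0 fell by limma, edgeR or DESeq2, and 1, Fancd2, was lower at an unadjusted limma p under 0.05. Upper-quartile and quantile scaling each gave 1 that fell and 1 that rose in that list. TMM scaling gave 1 that fell and 2 that rose, and DESeq2 called 1 rise. Chek1 stood at -0.18.

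**Figure D4:**
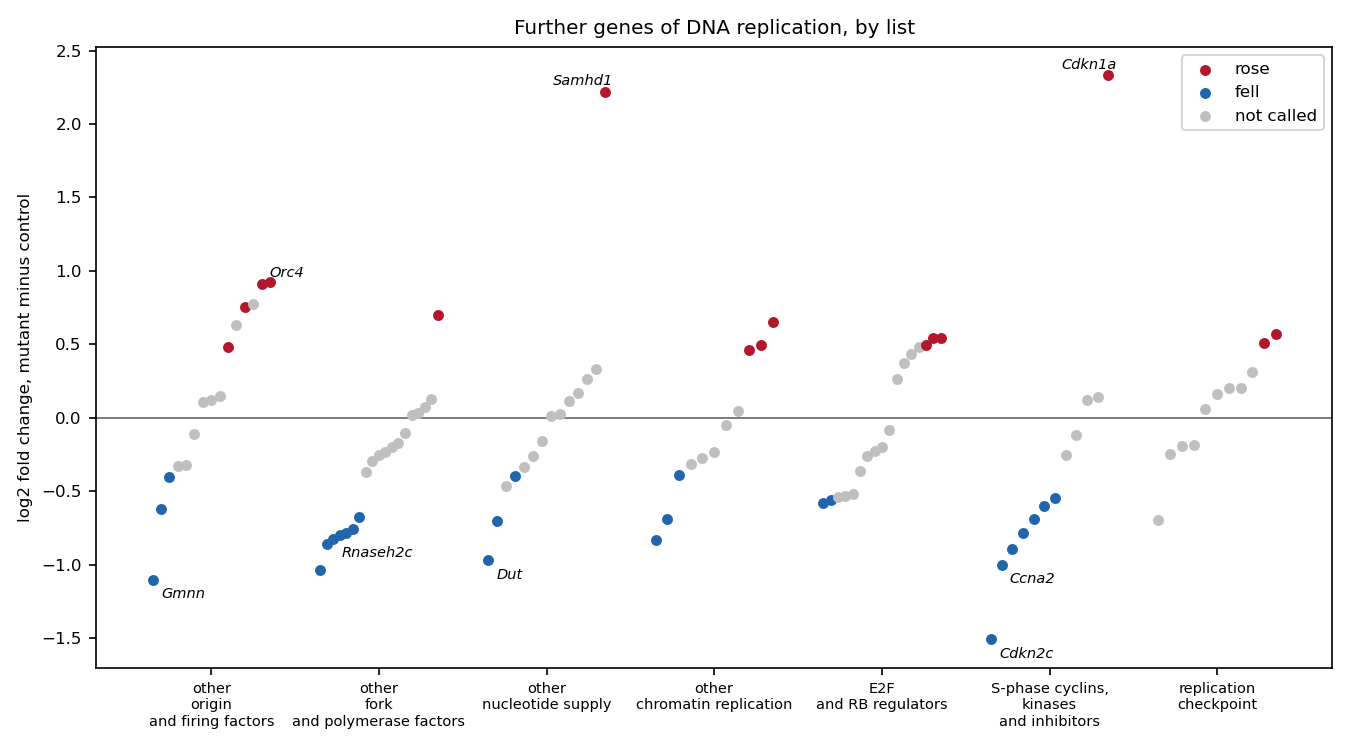
Log2 fold change, labelled mutants minus labelled controls, of the 99 further genes of DNA replication, 1 point a gene, by list, with colours for genes that fell, rose or were not called. Samhd1 and Cdkn1a stand above all other genes of the plot at 2.22 and 2.33.

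Markers of the cell types of the heart moved with the groups as well, and their part in the values above was not tested. The summed level of 10 cardiomyocyte markers was 22142 and 34061 CPM in labelled mutants 51 and 54, against 53124 and 42551 CPM in labelled controls 47 and 50, and 3 of the 10 fell, against 6 by DESeq2 and 1 under quantile scaling. All 10 were detected in every library. The sum of 10 fibroblast markers was 4920 and 5812 CPM in the labelled mutants, against 9266 and 7531 CPM in the labelled controls, and 5 fell, against 8 by DESeq2. Smooth muscle and pericyte markers summed to 580 and 842 CPM in the labelled mutants, against 1561 and 1395 CPM in the labelled controls, and 3 of 8 fell, against 6 under upper-quartile and under quantile scaling. Endothelial markers summed to 1448 and 1478 CPM in the labelled mutants, against 1415 and 1788 CPM in the labelled controls, and 0 of 10 were called by limma, edgeR or DESeq2, nor at an unadjusted limma p under 0.05.

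Of blood cells, macrophage markers summed to 215 and 158 CPM in labelled mutants 51 and 54, against 161 and 140 CPM in labelled controls 47 and 50, and 5 of 10 rose and 1 fell. Of 10 lymphocyte markers the table lists 1, Ptprc, a marker of all leukocytes, at 20.0 and 9.85 CPM in the labelled mutants, against 3.56 and 2.49 CPM in the labelled controls. Erythroid markers, 7 of 10 listed, summed to 689 and 5163 CPM in the labelled mutants, against 5737 and 13190 CPM in the labelled controls. None of the 7 was called by limma, edgeR or DESeq2, and 5 were lower at an unadjusted limma p under 0.05. Mutant 51 had the lowest erythroid sum of the 4 libraries. It was the lower of the labelled mutants in 32 of the 41 replication genes, beside 7793 of the 14869 genes tested. Of the labelled controls, 50 had the higher erythroid sum and the lower summed level of the 41 genes, at 1984 CPM against 2259 CPM in 47. A link between erythroid and replication genes was not tested. Airway and lung markers, 5 of 10 listed, summed to 47.6 and 29.3 CPM in the labelled mutants, against 47.2 and 42.0 CPM in the labelled controls, with 4 fallen and Foxj1 at 0 in mutant 54. The 1 that did not fall, Krt18, made up most of each mutant sum. It held 34.5 and 17.9 CPM in the labelled mutants, against 14.3 and 14.7 CPM in the labelled controls, and was not called. Reads of the mitochondrial genome made up 2.08% and 4.31% of the table's reads in the labelled mutants, against 6.14% and 6.93% in the labelled controls.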

How the data were processed

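RNA-seq libraries of 4 hearts, read as 150 bp pairs from a directional poly(A) kit per the labels' protocols, were analysed from 1 deposited table. GRCm38, DESeq, edgeR 3.10, STAR and fastp 0.20.0 are listed in the submitters' processing notes, and which step each tool made is not given in the sources used here. Per the file headers, 4 columns hold CPM. They are a signal per gene, scaled by the authors, with column sums from 935156 to 1034350. Other deposited columns hold a mean log2 CPM, an F score, a log fold change score, and a p-value with its FDR, all computed by the authors. Only their FDR was used, for the count of members it calls, and 0 per-sample columns were left out.

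In each column 100% of the values were whole multiples of a fixed step, to a tolerance of 0.001. The steps, 0.109 to 0.138 CPM a read, gave back the whole reads on which edgeR 4.0.16 and DESeq2 1.42.0 were run. These are reads of listed genes, whose smallest row maximum is 2.29 CPM, and not the full sequencing depth.

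The test was designed with a form for counts and one for CPM, and the CPM form was used. In R 4.3.3, limma 3.58.1 compared log2(CPM + 1) of genes with at least 1 CPM in 2 libraries, with trend, genotype as the only term, Benjamini-Hochberg adjustment over all genes tested and a threshold of 0.05. Fold changes are on that scale, which understates those of low genes. The scripts were tested on simulated data. Positions and exon lengths are those of GENCODE M21 (GRCm38), which named 14921 of the 14936 identifiers. The members and lists were chosen with earlier results of these data known. All 4 values are given, in each role, for the member with the smallest p and those with the largest and smallest change, and for every called member. Among further genes, the 2 with the smallest p in each list and a set of genes chosen by name are given, except 1 that is not reported here, and other genes named were chosen after their values were seen. The alternatives were TMM, upper-quartile and quantile scaling, pseudocounts of 0.5 and 2, no filter, a filter of 5 CPM, edgeR, DESeq2 and leaving out each library. Promoter motifs were counted by exact match.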

Additional observations from a re-analysis of the deposited data

How the results depend on the processing

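No paired analysis was possible because the embryo numbers are shared by no pair of samples across the groups. Over the alternatives that left out a library, the members that fell numbered 0 to 14, their median log2 fold change was -0.32 to -0.16, all genes called up numbered 534 to 2905 and down 37 to 2750, and further replication genes that fell numbered 0 to 28 and that rose 1 to 15. The lowest counts came without a control, where 1 control is left. DESeq2 called 9 further replication genes up, against 15 by limma. Upper-quartile scaling called 2252 genes up and 2939 down and added Gins1 and Pold1 to the 10 members, and quantile scaling called 2188 up and 2738 down, against 2643 up and 2107 down, with the median of all genes at -0.09 and -0.08, against -0.01. The cause was not tested. TMM and quantile scaling, both pseudocounts, both filters and edgeR called the same 10 members, and DESeq2 called 9 of them.

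The sign of 15 uncalled genes turned in at least 1 setting. Under upper-quartile scaling, Cdc6 was at -0.069, Mcm4 at -0.029, Pola1 at -0.026, Pola2 at -0.058 and Chaf1b at -0.018. Under quantile scaling, Cdc6 was at -0.047, Mcm4 at -0.039, Pola1 at -0.0044 and Pola2 at -0.031. Pole was at 0.0024 with TMM scaling and 0.0045 in edgeR, and Cdt1 at 0.015 in edgeR and 0.0048 in DESeq2. Leaving out 1 library in turn gave ranges that cross 0 for Cdc6 (-0.19 to 0.22), Cdt1 (-0.30 to 0.27), Mcm2 (-0.13 to 0.020), Mcm4 (-0.12 to 0.24), Mcm5 (-0.27 to 0.16), Gins2 (-0.15 to 0.0027), Pola1 (-0.014 to 0.14), Pola2 (-0.16 to 0.22), Pole (-0.16 to 0.14), Chaf1a (-0.32 to 0.069), Chaf1b (-0.12 to 0.26), Chek1 (-0.42 to 0.052), Dnmt1 (-0.24 to 0.13), E2f7 (-0.47 to 0.080) and Rrm2b (-0.13 to 0.36).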
